A study of Mus musculus with 8 samples.

Results

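Translation initiation and elongation factors were followed in single mouse blastocysts through the reads of their maternal and paternal alleles. They were taken as the genes whose symbols begin with Eif1 to Eif6, Eef1 or Eef2, without Eef1b2 and the X-linked Eif2s3x, which gave 61 of the 22810 genes in the count table. The study crossed C57BL/6 mice (B6) with Mus musculus castaneus (cast) in both directions by natural mating and collected blastocysts on embryonic day 3.5 without culture. From B6 mothers and cast fathers (forward cross) 3 embryos were kept, and from cast mothers and B6 fathers (reverse cross) 5. The study had removed samples with few mapped reads or too few reads in all. All embryos were F1 hybrids of these strains, with no mutation or treatment named in the labels, lysed whole and singly and processed with SMART-Seq2, which amplifies polyadenylated RNA. The value of a gene is the number of reads that cover a base differing between the strains, so each embryo has 1 count per strain. Maternal reads are B6 reads in the forward and cast reads in the reverse cross. The sex of the embryos is not given in the sources used here, and the cross, the strain of the mother and any day of collection cannot be told apart.

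Translation starts when initiation factors place the initiator tRNA, carried by eIF2 with GTP, on the small ribosomal subunit, bring that subunit to the capped end of the mRNA through eIF3 and the eIF4 proteins, and let it scan to a start codon. The exchange factor eIF2B recharges eIF2, and kinases that phosphorylate the alpha subunit of eIF2 block this step under stress. Elongation factors then deliver aminoacyl-tRNAs (eEF1A) and move the ribosome along (eEF2). The mouse embryo inherits these mRNAs and proteins from the oocyte, replaces them after its own genome is switched on, and increases protein synthesis toward the blastocyst stage.

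The embryos held 1060063 to 1632695 strain-assigned reads, of which 57.4% to 58.3% were B6 in every embryo. The factors other than X-linked Eif1ax together gave 0.688% to 1.64% of the reads, and 56.2% to 59.0% of their reads were B6. Reverse embryo 1 stood apart: its gene profile correlated with those of the other embryos at a mean of 0.702 over genes, against 0.837 to 0.861 for the others, and it held the 0.688%. All 13 blastocyst markers looked up had reads, but their summed level was 1313 RPM (reads scaled to 1000000 per embryo) in reverse embryo 1 and 3972 to 5372 in the others. Krt8 and Krt18 were low there (456 and 285 reads, against 2126 to 3231 and 1237 to 2482). Not all markers were: Gata6 (232 reads) and Tfap2c (127) were highest in reverse embryo 1. The 5 leukocyte markers summed to 34.7 to 673 RPM in the forward cross, highest in embryo 1 through Lyz2, and to 1.99 to 7.51 in the reverse cross. In forward embryos 2 and 3 Lyz2 had 38 and 43 reads and Cd52 2 and 3, while Ptprc, Cd68 and Csf1r had 0. Oocyte (8 listed, 8 with reads), uterine and oviduct epithelium (5 of 5), cumulus (3 of 5; Amh and Has2 without reads) and red blood cell markers (2 of 5; Hbb-bt, Hba-a1 and Hba-a2 without reads) summed to 11.3 to 27.8, 84.5 to 154, 0.00 to 4.29 and 2.67 to 51.2 RPM. Calls that changed without reverse embryo 1 or forward embryo 1 are given beside the results. A gene with few such bases gives few reads whatever its RNA level, so levels are compared between embryos and not between genes.

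In 10 of the factors the B6 allele gave a larger part of the reads than in most genes, in both directions of the cross. Of the 61 genes, 55 autosomal ones with at least 10 reads in 1 allele library were tested, with edgeR's quasi-likelihood test and Benjamini-Hochberg adjustment over all 12565 genes tested, called at an adjusted p of at most 0.1. Toward B6 10 of the 55 were called (18.2%), beside 11.0% of all genes tested, and toward cast 1 of 55 (1.82%), beside 4.45%. The genes called toward B6 were the elongation factor genes Eef1a1, Eef1g and Eif5a, the start-site genes Eif1 and Eif5, Eif2s2 of eIF2, Eif3e of eIF3 and the cap-complex group genes Eif4a1, Eif4a3 and Eif4b. The median log2 fold change of B6 over cast was 0.07 over the 55 factors and 0.06 over all genes tested.

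Each of the 10 had at least 1 annotated pseudogene, a copy elsewhere in the mouse genome, that matched 100 or more bases of its coding sequence at 90% identity or above. At 95% identity or above a copy was found for 8 of the 10, not for Eif4b and Eif5, and for 5 of the 44 factors without a strain call. The start of the coding sequence of 3 of the 10, taken from GENCODE M21 on mm10 (the B6 genome), shows how alike a close copy can be. Eef1a1 (chr9:78478449-78489151, minus strand) is set against AC133509.1 (chr19:17926623-17926742, plus strand), Eif2s2 (chr2:154871410-154892935, minus strand) against Gm9892 (chr8:52196937-52197056, minus strand), and capitals mark the bases that differ within each pair. In Eif4a1 (chr11:69666936-69672423, minus strand) the first 120 coding bases are identical to those of Eif4a-ps4 (chr1:60703932-60704051, plus strand), so 1 line stands for both.
Eef1a1: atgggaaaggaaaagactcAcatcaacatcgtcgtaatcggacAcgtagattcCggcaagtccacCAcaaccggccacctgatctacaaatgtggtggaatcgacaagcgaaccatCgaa
AC133509.1: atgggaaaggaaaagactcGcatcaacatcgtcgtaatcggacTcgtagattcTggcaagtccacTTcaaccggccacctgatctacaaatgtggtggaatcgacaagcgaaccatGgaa
Eif2s2: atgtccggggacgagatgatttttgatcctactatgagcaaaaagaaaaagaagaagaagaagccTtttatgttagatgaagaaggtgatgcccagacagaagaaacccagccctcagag
Gm9892: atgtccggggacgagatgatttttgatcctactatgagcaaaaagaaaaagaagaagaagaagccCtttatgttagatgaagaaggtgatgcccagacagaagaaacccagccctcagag
Eif4a1 and Eif4a-ps4: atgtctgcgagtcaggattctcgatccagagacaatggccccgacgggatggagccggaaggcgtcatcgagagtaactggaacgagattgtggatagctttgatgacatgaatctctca

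Copies were counted after the strain values had been seen. A pseudogene copy was found for 10 of the 10 factors called toward B6, for 13 of the 44 tested factors without a strain call and not for Eif2ak4, the 1 called toward cast. Of all tested genes with a coding sequence in the annotation, 27.8% of the 1070 called toward B6, 8.67% of the 450 called toward cast and 12.9% of the 9061 not called had such a copy. A copy did not go with a B6 excess in every factor. The 13 with a copy and no call held 47.5% to 61.7% B6 reads (median 56.0%). The 31 with neither held 46.5% to 95.2% (median 52.7%), the 95.2% being that of Eif2ak2, which had few reads. The study discarded reads that mapped to several places. The part of the copies in the strain differences was not tested.

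**Figure D1:**
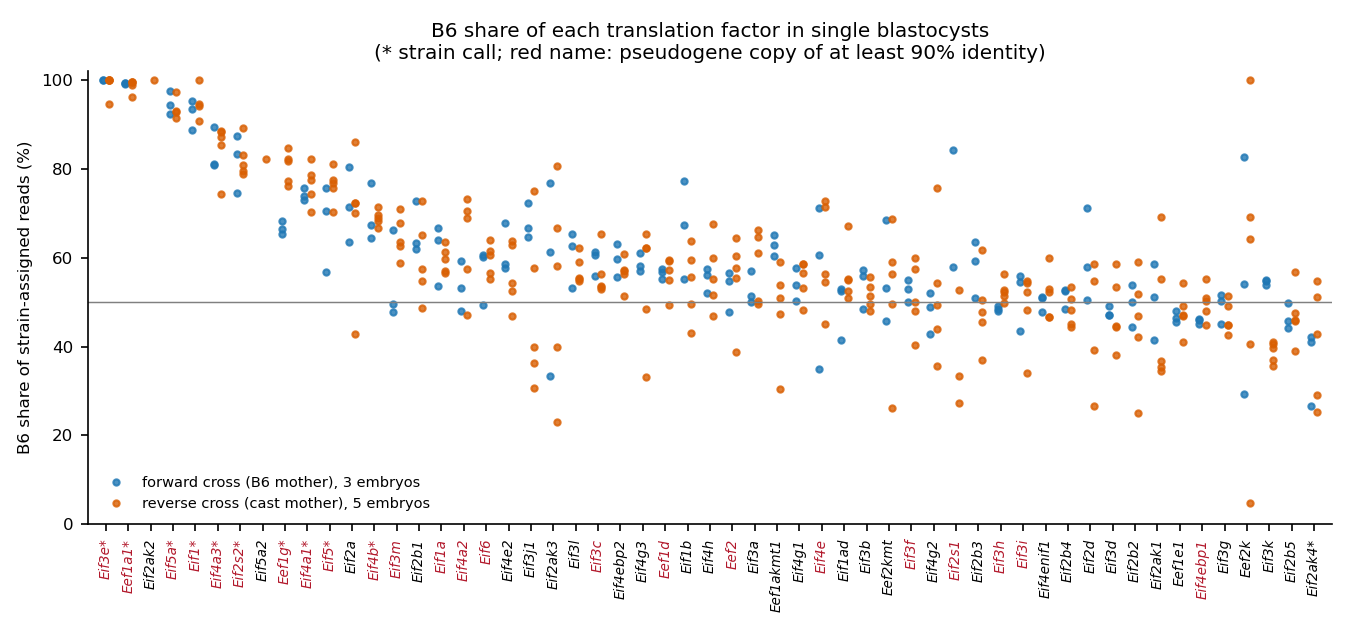
B6 share of strain-assigned reads (%) for the 55 tested factors, 1 point per embryo with at least 10 reads of the gene, blue for the 3 forward and orange for the 5 reverse embryos. Genes are ordered by their share over all embryos, which runs from 99.4% for Eif3e to 39.2% for Eif2ak4; asterisks mark the 11 strain calls and red names the 23 genes with a pseudogene copy.

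Eef1a1, which brings aminoacyl-tRNA to the ribosome, was read almost wholly from the B6 allele. It had 549, 537 and 941 B6 reads against 4, 5 and 5 cast reads in the forward embryos. In the reverse embryos 1, 2, 3, 5 and 7 it had 353, 939, 1378, 846 and 641 B6 reads against 14, 4, 5, 9 and 2 cast reads. The B6 share was thus 99.3% ± 0.197 (SD, n = 3) with a B6 mother and 98.8% ± 1.5 (SD, n = 5) with a B6 father, and the log2 fold change of B6 over cast was 6.71 ± 0.42 (SE; edgeR adjusted p = 5.31e-11). Eef1a1 had 19 pseudogene copies.

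Eif3e, a subunit of the eIF3 scaffold, had 169 B6 reads and 1 cast read in all. Its B6 reads were 5, 12 and 31 in the forward embryos and 18, 16, 44, 18 and 25 in the reverse embryos, and the only cast read was in reverse embryo 5. The fitted log2 fold change was 6.14 ± 0.79 (SE; edgeR adjusted p = 6.69e-06) and rests on a single cast read; the plain ratio of 169 to 1 has a 95% exact interval of 29.9 to 6714. Eif1, which guards start codon choice, had 29, 24 and 20 B6 against 2, 3 and 1 cast reads in the forward embryos and 12, 16, 10, 8 and 18 against 0, 1, 1, 1 and 1 in the reverse embryos. Its log2 fold change was 3.34 ± 0.57 (SE; edgeR adjusted p = 0.000244), and its 20 copies were the most of any factor.

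Eif5a, the hypusine-carrying factor that helps the ribosome join difficult residues, had 116, 109 and 274 B6 against 3, 9 and 16 cast reads in the forward embryos. The reverse embryos had 2, 269, 398, 214 and 183 B6 against 1, 21, 37, 16 and 5 cast reads. The 3 reads in all in reverse embryo 1 are 1.99 RPM, where the other embryos had 72.9 to 290. The log2 fold change over all embryos was 3.58 ± 0.69 (SE; edgeR adjusted p = 0.000909).

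Eif4a3, a helicase related to eIF4A that sits in the exon junction complex, held 83.8% ± 4.92 (SD, n = 3) B6 reads with a B6 mother and 84.8% ± 5.91 (SD, n = 5) with a B6 father. Its reads were 481, 417 and 913 B6 against 114, 97 and 107 cast, and 169, 775, 1015, 733 and 537 B6 against 58, 100, 135, 107 and 92 cast. Reverse embryo 1 had the lowest B6 share, and both crosses lay well above 50% in every embryo. The log2 fold change was 2.30 ± 0.35 (SE; edgeR adjusted p = 5.03e-05), and reads of this gene could be split with 2 coding genes, Gm5580 and Gm8994, that match it at 95% identity or above.

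Eif2s2, the beta subunit of eIF2, had 77, 41 and 50 B6 against 11, 14 and 10 cast reads in the forward embryos and 58, 58, 79, 80 and 41 against 15, 7, 16, 19 and 11 in the reverse embryos, a log2 fold change of 1.86 ± 0.31 (SE; edgeR adjusted p = 0.000165). Eif4a1, the main helicase of the cap complex, had 291, 257 and 219 B6 against 108, 82 and 77 cast reads, and 379, 243, 131, 205 and 111 against 103, 84, 38, 44 and 47, a log2 fold change of 1.30 ± 0.25 (SE; edgeR adjusted p = 0.000983). In both genes B6 reads exceeded cast reads in 8 of 8 embryos. Eif2s2 overlaps the gene a on the opposite strand, and the sources used here do not say whether counting used strand. Eif4b, which stimulates that helicase, held 69.5% ± 6.48 (SD, n = 3) and 69.0% ± 1.78 (SD, n = 5) B6 reads, and Eif5, which triggers GTP hydrolysis at the start codon, held 67.7% ± 9.73 and 76.3% ± 3.96. Their log2 fold changes were 0.86 ± 0.22 (SE) and 1.0 ± 0.28 (SE), with edgeR adjusted p of 0.0122 and 0.0184. Eif4b lost its call without forward embryo 2, and Eif5 without forward embryo 2 or 3, at adjusted p of up to 0.119 and 0.112.

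Eif2ak4 (GCN2), the eIF2 alpha kinase that senses uncharged tRNA, was the only factor called toward cast. It had 45, 34 and 16 B6 against 62, 49 and 44 cast reads in the forward embryos and 38, 63, 23, 45 and 9 against 112, 52, 22, 60 and 22 in the reverse embryos. Cast reads exceeded B6 reads in 6 of 8 embryos, with a log2 fold change of -0.99 ± 0.34 (SE; edgeR adjusted p = 0.067). Leaving out forward embryo 1, 2 or 3 or reverse embryo 1 ended this call, as did 1 library size per embryo, and over all alternatives the adjusted p ran from 0.00782 to 0.252. Without reverse embryo 1, Eif2a was gained toward B6 (log2 fold change 1.08; edgeR adjusted p = 0.0422) and Eif3g toward cast (-0.48; edgeR adjusted p = 0.0545).

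Both alleles of an embryo share that embryo's RNA, and with a term for each embryo (the replicate block) 20 factors were called instead of 11. Toward B6 these were 12 (21.8%, beside 15.8% of all genes), the former 10 with Eif1a and Eif2a, and toward cast 8 (14.5%, beside 9.69%), namely Eef1e1, Eif2ak4, Eif2b5, Eif3d, Eif3g, Eif3h, Eif3k and Eif4ebp1. The 7 added toward cast are relative to a scaling that sets the 57.4% to 58.3% B6 share of all reads to equality. With 1 library size per embryo, the median of all genes shifted by 0.33 toward B6. In that setting 12 of 55 factors were called toward B6, beside 2251 of all 12565 genes, and 0 toward cast, beside 325. Eef1e1, for example, had 47.7% B6 reads over all embryos and a block log2 fold change of -0.49 ± 0.14 (SE), with an edgeR adjusted p of 0.0135. Eif3h was called toward cast with 51.1% B6 reads over all embryos. Its block log2 fold change was -0.30 ± 0.10 (SE), with an edgeR adjusted p of 0.0306.

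**Figure D2:**
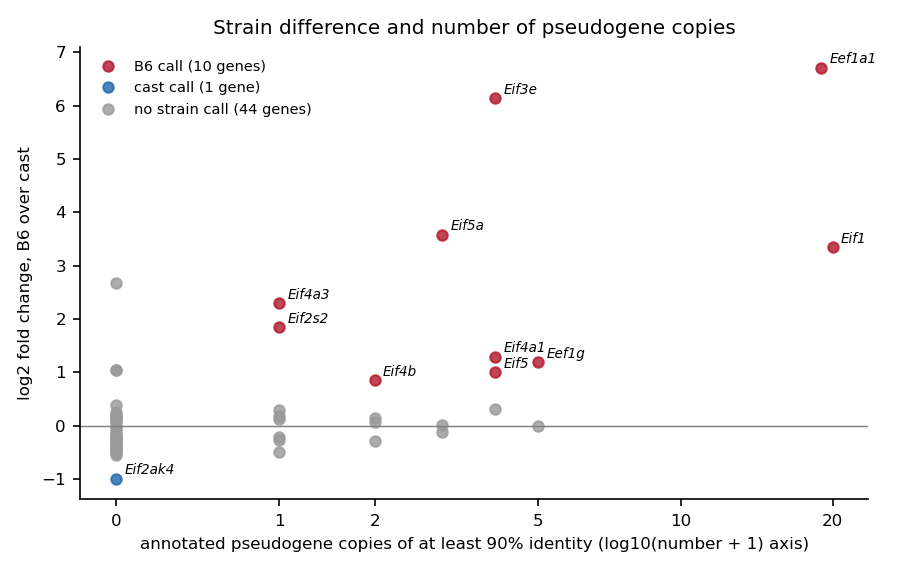
Log2 fold change of B6 over cast against the number of annotated pseudogene copies of at least 90% identity (log10(number + 1) axis) for the 55 tested factors. The 10 genes called toward B6 (red) all have 1 to 20 copies, Eif2ak4 (blue, called toward cast) has 0, and the 44 uncalled genes (grey) have 0 to 5.

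In the test without a block and with the filter on low counts, no factor passed for a difference between its maternal and its paternal allele; with the replicate block Eif3k was called, and without the filter Eif4e3. By the same edgeR fit with strain as a term, 0 of the 55 were called at an adjusted p of at most 0.1, beside 1.42% of all genes tested, and 1 had an unadjusted p under 0.05. DESeq2 called 0 as well. The maternal over paternal log2 fold changes had a median of 0.02, against 0.01 over all genes tested, and 51 of the 55 lay within 0.5 of equality. Their median size was 0.10, against 0.29 over all genes, and the factors also had more reads, with a median of 1102 over all embryos against 309.

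A test of equivalence asked whether the parental difference was smaller than 1 on the log2 scale. It was passed by 42 of the 55 factors (76.4%), beside 35.6% of all genes tested. Since this test needs reads, it was repeated among genes with at least 10 reads in every embryo, where 45 of 48 factors (93.8%) passed beside 78.0% of all genes. The count rested on the forward cross: without forward embryo 1, 2 or 3 it was 28, 24 or 19, and without a reverse embryo 36 to 46. With a margin of 1.5-fold it was 0. The share of all genes that passed in these settings is not given here.

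By role, equivalence was passed by 5 of 5 eIF2B subunits, 10 of 10 tested genes of the eIF4 group, 3 of 3 tested eIF4E binding proteins, 10 of 13 eIF3 subunits and 5 of 7 tested elongation factors. It was also passed by 3 of 5 tested start-site genes, 2 of 4 eIF2 genes and tRNA carriers, 2 of 4 eIF2 alpha kinases, 1 of 3 elongation factor modifiers and by Eif6, which keeps the large subunit from joining early. Of the 13 factors that did not pass, Eif2s1, Eif3e, Eif3j1, Eif1 and Eef2k had 119 to 189 reads in all and Eif5a2 and Eif2ak2 43 and 21, whereas Eif3k had the most reads of any factor.

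**Figure D3:**
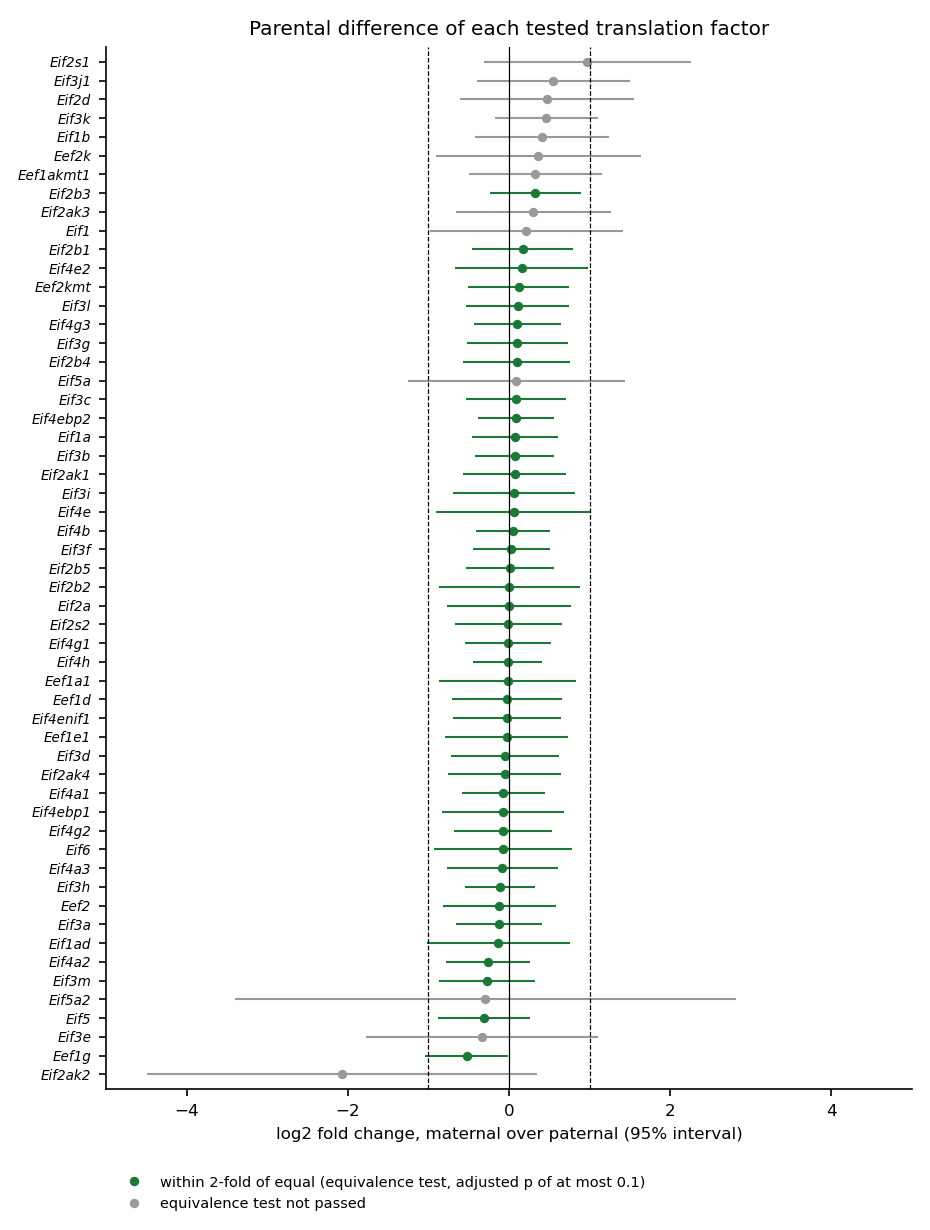
Log2 fold change, maternal over paternal, with its 95% interval for each of the 55 tested factors, ordered by value. The solid line is equality and the dashed lines the margin of 1; green marks the 42 factors that passed the equivalence test, and only the interval of Eef1g, from -1.04 to -0.01, leaves out 0.

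Eif3k, the smallest subunit of eIF3 (chr7:28971372-28981864, minus strand), had more maternal than paternal reads in 8 of 8 embryos, and was the only tested factor with this pattern. The forward embryos had 1469, 1283 and 1500 maternal against 1259, 1052 and 1241 paternal reads. The reverse embryos had 566, 1195, 1143, 987 and 663 maternal against 314, 832, 670, 650 and 453 paternal reads. The maternal share was 54.5% ± 0.580 (SD, n = 3) and 61.2% ± 2.36 (SD, n = 5). In the forward cross all genes together had 57.7% to 58.3% maternal reads, and in the reverse cross 41.9% to 42.6%, so Eif3k lay under that level with a B6 mother and above it with a cast mother.

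The parental log2 fold change of Eif3k was 0.46 ± 0.31 (SE; edgeR adjusted p = 1.0 over all genes) in the main test. With the replicate block it was 0.47 ± 0.07 (SE; edgeR adjusted p = 0.000126), and Eif3k was the 1 factor called of 55, beside 3.10% of all genes in that fit. The same fit gave B6 over cast a log2 fold change of -0.53 ± 0.07 (SE; edgeR adjusted p = 4.10e-06), and the parental difference of Eif3k was equivalent within the margin. The parental call of Eif3k depended on the block alone, since the value stayed between 0.43 and 0.48 in all alternatives.

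Eef1g, the gamma subunit of the eEF1B exchange complex, had the smallest parental p. Its maternal reads were 81, 47 and 56 against 41, 25 and 26 paternal reads in the forward embryos, and 35, 18, 22, 20 and 23 against 163, 81, 70, 111 and 78 in the reverse embryos. B6 reads were in excess in every embryo, by more when B6 was the father. The log2 fold change, maternal over paternal, was -0.52 ± 0.25 (SE; edgeR adjusted p = 0.66), which does not pass the threshold.

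The other low p-values belonged to genes with few reads or with embryos on both sides of equality. Eif2s1, the alpha subunit of eIF2 that the stress kinases phosphorylate, had 11, 16 and 3 maternal against 8, 3 and 2 paternal reads in the forward and 17, 2, 6, 12 and 8 against 19, 1, 2, 6 and 3 in the reverse embryos. Maternal reads were higher in 7 of 8 embryos, with a log2 fold change of 0.97 ± 0.62 (SE; edgeR adjusted p = 0.966). Eif2ak2 (PKR), the kinase that answers double-stranded RNA, had 21 reads in all, 19 of them paternal and 20 of them B6, and Eif2b3 of eIF2B had a log2 fold change of 0.33 ± 0.27 (SE; edgeR adjusted p = 1.0).

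**Figure D4:**
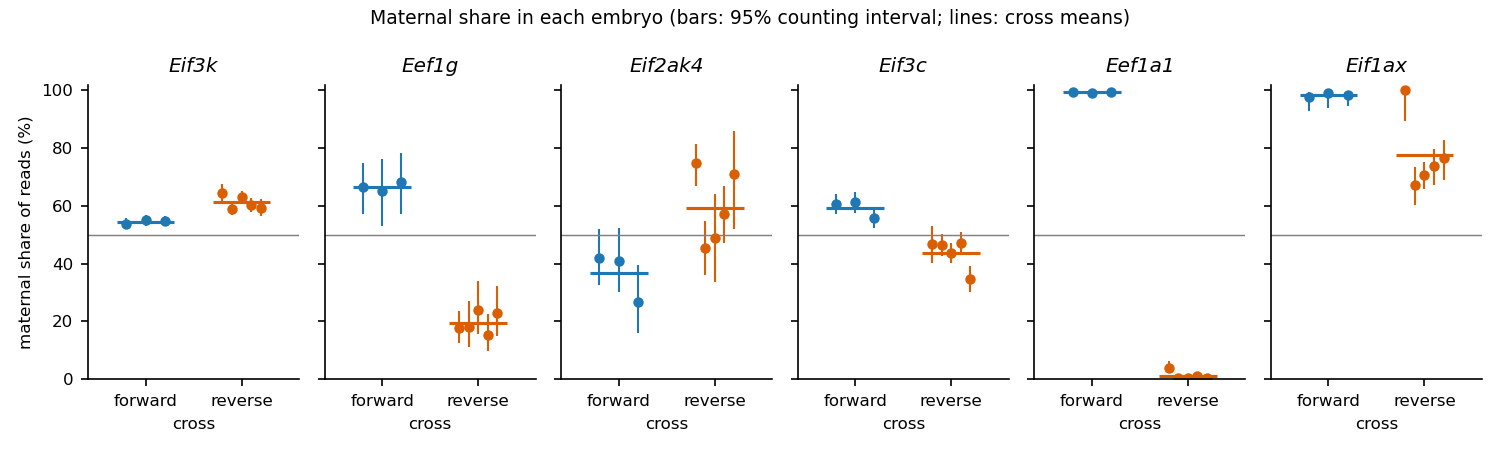
Maternal share of reads (%) in each embryo for 6 factors, with 95% exact (Clopper-Pearson) binomial intervals as bars and the cross means as lines; the intervals cover counting error only. Eif3k lies above 50% in all 8 embryos, Eef1a1 and Eef1g swap sides with the cross, and X-linked Eif1ax lies above 50% in all 8 embryos.

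Eif4e, Eif4g1, Eif4g2, Eif4a2 and Eif4ebp1 did not pass the parental test and passed the equivalence test. Eif4e, which binds the cap, had 21, 17 and 32 maternal against 39, 11 and 13 paternal reads in the forward embryos and 68, 6, 6, 14 and 10 against 56, 16, 15, 18 and 12 in the reverse embryos. Its parental log2 fold change was 0.06 ± 0.46 (SE), and single embryos lay on either side of equality. Eif4g1, the scaffold between cap and ribosome, had 130, 86 and 87 maternal against 129, 74 and 64 paternal reads, and 46, 103, 39, 78 and 59 against 65, 96, 55, 102 and 67, a log2 fold change of -0.01 ± 0.26 (SE). Eif4g2, a relative that acts without eIF4E, had -0.07 ± 0.29 (SE), and Eif4a2, the second eIF4A helicase, -0.26 ± 0.25 (SE). Eif4ebp1, which holds eIF4E away from eIF4G until mTOR phosphorylates it, had 738, 667 and 802 maternal against 856, 812 and 941 paternal reads in the forward embryos and 172, 820, 1222, 985 and 494 against 213, 850, 1131, 802 and 501 in the reverse embryos, a log2 fold change of -0.07 ± 0.37 (SE).

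Eif3a, Eef2 and Eif6 of the other roles did not pass the parental test either and passed the equivalence test. Eif3a, the largest eIF3 subunit, had 339, 206 and 228 maternal against 321, 206 and 172 paternal reads in the forward embryos and 94, 172, 97, 211 and 119 against 185, 269, 177, 207 and 120 in the reverse embryos, a log2 fold change of -0.13 ± 0.26 (SE). Eef2, the translocase, had 315, 307 and 471 maternal against 344, 254 and 363 paternal reads, and 114, 240, 234, 311 and 259 against 72, 434, 357, 387 and 353, a log2 fold change of -0.12 ± 0.34 (SE). Eif6 had 243, 283 and 676 against 161, 290 and 439, and 65, 326, 367, 344 and 235 against 104, 401, 654, 531 and 307, a log2 fold change of -0.07 ± 0.41 (SE). Reverse embryo 1 was the only reverse embryo with more maternal than paternal Eef2 reads.

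Among the factors with at least 20 reads in every embryo, the within-cross SD of the maternal share was widest in Eef2kmt, the lysine methyltransferase of eEF2 (14.6 percentage points), Eif4e (14.4) and Eif2ak1, the heme-regulated eIF2 alpha kinase (13.5), against 1.95 in Eif3k. Eef2kmt had 44, 39 and 33 maternal against 52, 18 and 29 paternal reads in the forward embryos and 63, 34, 20, 59 and 29 against 62, 44, 44, 21 and 42 in the reverse embryos. Eif2ak1 had 42, 36 and 48 against 40, 51 and 34, and 38, 42, 43, 44 and 17 against 20, 23, 25, 54 and 38. Neither gene kept to 1 side within a cross.

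Close copies within the factor families are given side by side; their read numbers are not compared, since the number of informative bases differs between genes. Eef1a1 had 6232 reads, and Eef1a2, the form of muscle and neurons, had 2 reads, both B6 and both in forward embryo 1. Eif5a had 1673 reads and Eif5a2 43, of which 34 were in reverse embryo 2 (28 B6 and 6 cast). Eif1 was called toward B6, and Eif1b, its near copy, held 57.0% B6 reads with a log2 fold change of 0.25 ± 0.40 (SE; edgeR adjusted p = 0.787). Eif4a1 and Eif4a3 were called toward B6, and Eif4a2, with 59.3% B6 reads, was not (log2 fold change 0.15 ± 0.25, SE; edgeR adjusted p = 0.803). Whether these copies differ from each other was not tested. Eif3j1 had 181 reads, which could be split with Eif3j2, a coding gene that matches it at 95% identity or above and is not analysed here.

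Among the cap-binding genes, Eif4e2, which competes with eIF4E for the cap, had 1102 reads and a parental log2 fold change of 0.16 ± 0.40 (SE). Eif4e1b, the oocyte form, had 12 reads over 5 embryos. Eif4e3 had 20 reads, all maternal: 6 and 1 B6 reads in forward embryos 1 and 3, and 9 and 4 cast reads in reverse embryos 1 and 3, with none in the other 4 embryos. It had no library of 10 reads and so was not tested. Without the filter its log2 fold change was 4.21 ± 1.30 (SE; edgeR adjusted p = 0.0729), a fitted value against paternal libraries that are all at 0. Against a floor of 3 reads over all embryos the ratio of the maternal reads was 6.67. That value is set by the floor, has no interval and is not a lower limit. Eif5b, which joins the subunits, had 3 reads, and Eif4ebp3 1 read. The autosomal factors left out for few reads were thus Eef1a2, Eif4e1b, Eif4e3, Eif5b and Eif4ebp3. Eif4ebp2 had 839 reads and a parental log2 fold change of 0.09 ± 0.23 (SE).

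Eif1ax, the X-linked form of the scanning factor eIF1A, was left out of the tests and is described here. The forward embryos had 117, 90 and 131 maternal against 3, 1 and 2 paternal reads, maternal shares of 97.5% (95% exact interval 92.9% to 99.5%), 98.9% (94.0% to 99.97%) and 98.5% (94.7% to 99.8%). The reverse embryos 2, 3, 5 and 7 had 139, 253, 154 and 117 maternal against 68, 105, 55 and 36 paternal reads, shares of 67.1% (60.3% to 73.5%), 70.7% (65.7% to 75.3%), 73.7% (67.2% to 79.5%) and 76.5% (68.9% to 82.9%). Reverse embryo 1 had 33 maternal and 0 paternal reads, a maternal share of 100% (95% exact interval 89.4% to 100%), and by the floor of 3 reads a paternal share of up to 9.09% is allowed. A male embryo has no paternal X chromosome, and in female mouse embryos the paternal X is inactivated early. If they came from Eif1ax itself, the paternal reads of reverse embryos 2, 3, 5 and 7 need a paternal X chromosome. Eif1ax has 1 pseudogene copy, Gm13368 on chromosome 2 (91.9% identity), and its part was not tested. In the forward embryos and reverse embryo 1, sex, X inactivation and cross cannot be told apart.

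The total reads of the factors, both alleles summed, did not pass the test between the crosses for any gene. Of 53 factors with at least 10 reads in 3 or more embryos, edgeR called 0, beside 0.0668% of the 10483 genes tested. An unadjusted edgeR p under 0.05 was found for 2 of the 53 factors, beside 750 of the 10483 genes. DESeq2 also called 0. Eif3k had 1671, 2027 and 2146 RPM in the forward and 585, 1268, 1210, 1229 and 1053 in the reverse embryos. Its log2 fold change (reverse over forward) was -0.82 ± 0.35 (SE), with an edgeR adjusted p of 0.646. Eif2b5, the catalytic subunit of eIF2B, had 159, 188 and 139 against 123, 118, 56.1, 87.1 and 111 RPM, a log2 fold change of -0.70 ± 0.29 (SE; edgeR adjusted p = 0.608). Without reverse embryo 1 these were -0.64 and -0.75, with edgeR adjusted p of 0.215 for both. The sum of the leukocyte markers was also higher in every forward embryo, in embryos 2 and 3 mainly through Lyz2. Its part was not tested.

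Reverse embryo 1 had the lowest level of 24 of the 53 factors and the highest of 12. Among the low ones, Eif4ebp1 had 256 RPM there against 939 to 1570.2 in the other embryos, Eif6 112 against 247 to 873, and Eif1ad, which is similar to eIF1A, 40.5 against 202 to 385. Among the high ones, Eif4e had 82.4 RPM against 13.8 to 36.7, and Eef1g 132 against 61.4 to 98.4. Other embryos held many extremes too. Reverse embryo 3 was lowest for 14 factors and highest for 14, and forward embryo 3 was highest for 12. The shares over all genes were not counted. An RPM value is a share of the embryo's own reads, so fewer cells of a type that holds the RNA and less of that RNA per cell cannot be told apart.

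**Figure D5:**
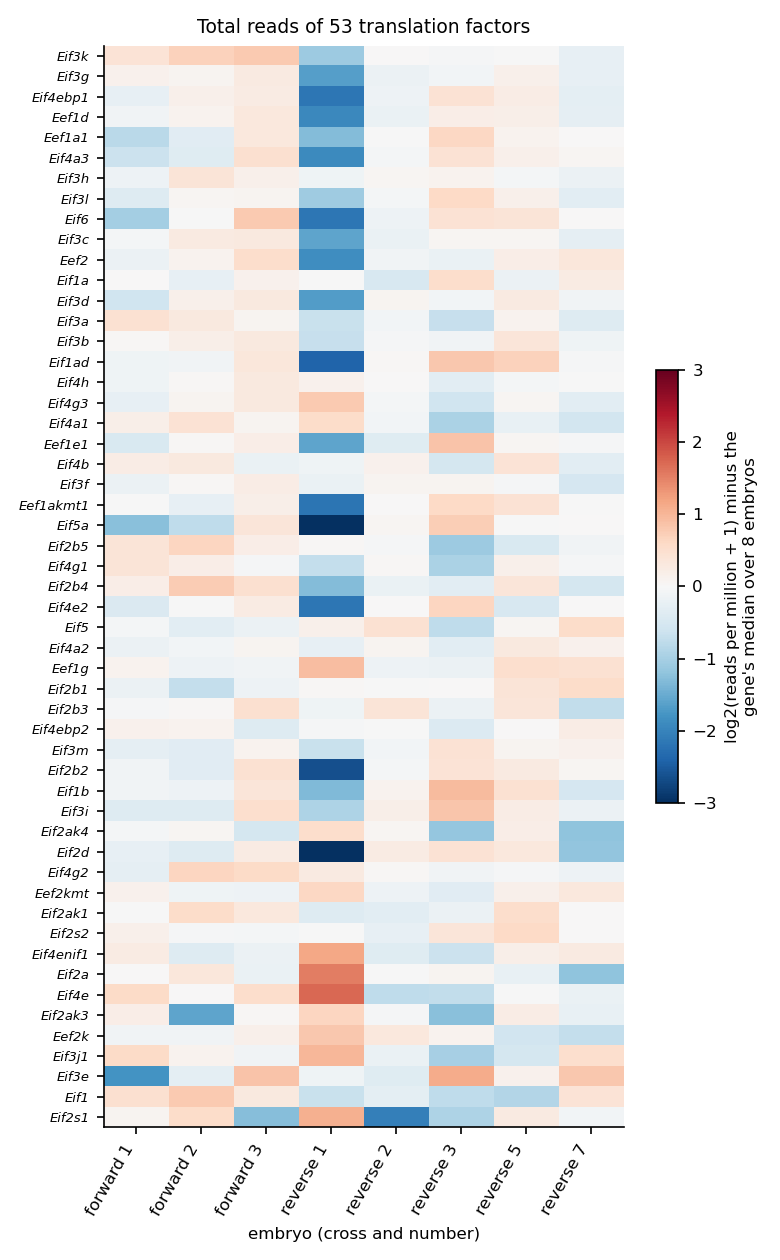
Total reads of 53 factors in the 8 embryos, as log2(RPM + 1) minus the median of the gene over the 8 embryos, genes ordered by total reads from the top. Reverse embryo 1 has the lowest value for 24 genes, among them Eif4ebp1, Eif6 and Eif1ad, and the highest for 12, among them Eif4e and Eef1g. Reverse embryo 3 has the lowest value for 14 and the highest for 14.

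A further list held 57 tested genes for release, mitochondrial translation, eEF2 and eIF5A modification, mTOR and stress signalling. Of these, edgeR called 0 between the parents (beside 1.42% of all genes), 5 toward B6 (beside 11.0%) and 0 toward cast (beside 4.45%). The 5 were Abce1, which recycles ribosomes, Pabpc4, a poly(A)-binding protein, Tufm and Mtif3 of mitochondrial translation, and Serbp1, which binds idle ribosomes. Pabpc4 held 95.3% B6 reads (log2 fold change 3.88 ± 0.44, SE; edgeR adjusted p = 1.10e-06) and had 14 pseudogene copies, Tufm 82.4% and 1 copy, Abce1 75.6% and 1 copy, and Mtif3 and Serbp1 67.5% and 66.7% with 0 copies. With the replicate block 1 was called between the parents (beside 3.10% of all genes), Bzw2 toward the paternal allele (edgeR adjusted p = 0.0752), whose log2 fold change in the main test was -1.04 ± 0.48 (SE; edgeR adjusted p = 0.623). In that fit the same 5 were called toward B6 (beside 15.8%), and Eefsec, Mtrf1l, Rictor and Gcn1l1, 4 genes, toward cast (beside 9.69%). In the main fit 35 of the 57 passed the equivalence test, beside 4478 of all 12565 genes (35.6%). That test was not repeated for this list among genes with at least 10 reads in every embryo.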

How the data were processed

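Per the labels and the study's methods, the authors aligned SMART-Seq2 reads of single blastocysts to mm10 with STAR (2.5.2b in the submitters' processing notes), used SAMtools 1.9-92 and bedtools, discarded reads with several locations and assigned reads over strain polymorphisms to B6 or cast with Allelome.Pro. The deposited table holds these raw counts per gene and strain; use of strand is not stated. Counts were tested in R 4.3.3 with edgeR 4.0.16 (glmQLFit, TMM per allele library, terms for parent and strain, autosomal genes with at least 10 reads in 1 library); DESeq2 1.42.0 was an alternative. Equivalence used one-sided tests against a log2 margin of 1. Total reads per embryo were compared between crosses in genes with at least 10 reads in 3 embryos. The fits were tested on simulated data. Intervals cover counting error only, since PCR reads carry no molecular identifiers. Pairing rests on the alleles of an embryo sharing that embryo (correlation of deviations 0.083 to 0.478); embryo numbers are shared between crosses only as names. P-values of the allele tests without a block measure the spread between allele libraries and count both libraries of an embryo as separate. With the block they measure the spread of the allele ratio between embryos. In the test between crosses they measure the spread between embryos. The litters of the embryos are not given. Embryo values are given for called factors, the 5 with the smallest parental p, the best-known factors, close copies, the 3 most variable and X-linked ones. Pseudogene copies were found with megablast of coding sequences against GENCODE M21 transcripts. Members and lists were chosen with earlier results of these data known, and the pseudogene look after the strain values.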

Additional observations from a re-analysis of the deposited data

Results flagged for a closer look

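Dixon's test over the 5 reverse embryos singled out the maternal share of 5 of 44 factors with at least 20 reads in every embryo. The nominal rate of the test is about 1 in 20 groups, and the share of all genes singled out was not counted. In 4 of the 5 factors the embryo singled out was reverse embryo 1, which also stood apart in its profile over all genes. Its maternal share of Eef1a1 was 3.81% (0.311% to 1.05% in the other reverse embryos), of Eif4a3 25.6% (11.4% to 14.6%), of Eif1ad 32.8% (44.9% to 49.0%) and of X-linked Eif1ax 100% (67.1% to 76.5%). In reverse embryo 7 the maternal share of Eif3c, a core eIF3 subunit, was 34.7% (43.7% to 47.0% in the others).

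The strain term of the fit is also the test of whether the parental difference changes with the cross, and 11 factors differed in this way (edgeR adjusted p of at most 0.1). Their log2 values were 6.71 for Eef1a1, 6.14 for Eif3e, 3.58 for Eif5a, 3.34 for Eif1, 2.30 for Eif4a3, 1.86 for Eif2s2, 1.30 for Eif4a1, 1.19 for Eef1g, 1.0 for Eif5, 0.86 for Eif4b and -0.99 for Eif2ak4.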

How the results depend on the processing

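The count of factors called between parents was 0 in the main test and 0 without any 1 embryo (lowest 0, highest 0), 1 with the replicate block (Eif3k) and 1 without a filter (Eif4e3). The count of strain calls was 11, 20 with the replicate block and 8 to 12 without 1 embryo. The count of equivalent factors was 42, 48 with the block, 0 with a margin of 1.5-fold and 19 to 46 without 1 embryo. The count between crosses was 0 in every setting, from 0 to 0 without 1 embryo and 0 with embryo numbers as a replicate block; these numbers correlated at 0.186, 0.00777 and 0.136. None of the 5 smallest-p parental values and the 11 strain values recomputed under each alternative reversed. Uncalled parental values near 0 did change sign, such as Eif4g2 (0.10) and Eif4e (-0.20) without reverse embryo 1 and Eif4g1 (0.06) without forward embryo 1. Of the 11 strain calls, 8 held in every alternative that could be run, and Eif2ak4, Eif5 and Eif4b lost theirs in 5, 2 and 1 of 14. All of the losses came without 1 embryo except 1, with 1 library size per embryo for Eif2ak4. Parental intervals reached past the margin in factors under 200 reads and in some with more, such as Eif3k, and 5 autosomal factors could not be tested. There were 3 forward embryos from an unstated number of litters, and sex was not given. The mother and any day of collection go with the cross, so differences between crosses cannot be assigned. The cause of these changes was not tested.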
